A study of Sus scrofa with 15 samples.

Results

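Pig corpus cavernosum that had received an implant, under the label implantation B, was set against corpus cavernosum with a defect, using polyadenylated RNA of 3 libraries in each group. These 6 libraries were chosen by their labels out of 15 in 5 groups, and the 3 libraries of normal tissue were kept in the same fit as a reference. The pair is not one of those the study's own design names. All samples are labelled penile corpus cavernosum of the pig, and no strain, age, time after operation or separate animal is given. What the implant was made of, how implantation B differs from implantation A, and how the defect was made are not given in the labels either. P-values therefore reflect how far the libraries of a group differ from one another, and this scatter may be technical.

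Corpus cavernosum is the spongy erectile body of the penis, a meshwork of smooth muscle and collagen around blood spaces lined by endothelium. After injury, fibroblasts fill such tissue with a provisional matrix and then with collagen fibrils, while macrophages clear debris and secrete proteases that remodel the matrix. Enzymes that hydroxylate and crosslink collagen make the fibrils last, and signals of the transforming growth factor beta family drive much of this response. The transcripts of this repair are called scar transcripts here, whether they encode matrix, the enzymes that handle it or the cells that take part.

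Implantation B and defect shared the abundance of type I collagen transcripts but differed in many others of the scar. COL6A5, CHI3L1, MMP13, ARG1 and SAA3 stood far above normal in defect and were lower in implantation B. Implantation B was still 124-fold over normal for COL6A5 and 114-fold for CHI3L1, but 5.37-fold for MMP13 and 4.88-fold for SAA3, and for ARG1 its difference from normal did not pass (adjusted p = 0.3). EGR1, FOS and FOSB, which cells switch on within minutes of a stimulus, were far higher in implantation B than in defect. Of 133 scar transcripts tested, 92 were raised at least 2-fold over normal in defect, and 81 of these were raised in implantation B as well. By the same rule 12.6% of all genes were raised in defect and 8.85% in both. The scar transcripts were chosen with earlier results of these data known.

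The depth of the libraries was very uneven. Total gene counts were 18416067, 17234169 and 19526875 in implantation B, and between 17375064 and 17580898 in normal. In defect they were 207769, 250178 and 17703564, so defect 3 held 97.48% of the counts of its group. A floor of 3 counts lay at 14.4 and 12 CPM (counts scaled to library size) in defect 1 and 2 and at 0.169 CPM in defect 3. Every value of a single gene is therefore given library by library, in the order 1, 2, 3, as CPM after scaling by TMM (trimmed mean of M-values) factors. Fold changes come from edgeR's quasi-likelihood model, which weighs libraries by their counts where a gene has few, and a ratio of mean CPM need not equal them. Without defect 3 the median log2 fold change of all genes moved from 0.00837 to 0.25, and changes named for that setting are to be read against this shift. Smooth muscle and endothelial transcripts such as MYH11 and PECAM1 were present in all 9 libraries, as the tissue label implies, and skeletal muscle markers summed to between 0 and 7.60 CPM.

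COL1A1 encodes the more abundant chain of type I collagen and lies on chromosome 12, 26379087 to 26397180, of the build Sscrofa11.1. It stood at 77452, 77995 and 79751 CPM in implantation B, at 68850, 75298 and 75121 CPM in defect, and at 8083, 7745 and 7328 CPM in normal. The libraries of implantation B thus lay just above those of defect, and both groups far above normal. The difference between implantation B and defect was 0.10 ± 0.0446 on the log2 scale (SE, n = 3 per group) and did not pass the test (edgeR's quasi-likelihood test, Benjamini-Hochberg adjusted p = 0.0828). It passed in 5 of 21 alternative settings, among them the fit without defect 2 (0.14, adjusted p = 0.0282). COL1A2, the partner chain, stood at 32750, 32658 and 33166 CPM in implantation B and at 32488, 33227 and 35703 CPM in defect, with overlapping libraries and a log2 difference of -0.04 ± 0.044 (SE). Without defect 1 and 2 that difference was -0.12 and passed (adjusted p = 0.044).

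COL6A5, a chain of the collagen VI family that forms beaded filaments (chromosome 13, 2029543 to 2174404), separated the groups. It stood at 13.3, 14.3 and 12.6 CPM in implantation B, at 311, 271 and 229 CPM in defect, and at 0.1, 0.149 and 0.0487 CPM in normal. Every library of implantation B lay between those of normal and those of defect. The log2 fold change of implantation B over defect was -4.17 ± 0.0972 (SE, adjusted p = 4.88e-49), which is an 18-fold lower level, while implantation B was 124-fold and defect 2229-fold over normal.

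CHI3L1 encodes a chitinase-like glycoprotein that macrophages and injured tissue secrete (chromosome 9, 113885541 to 113895033). Its levels were 196, 190 and 186 CPM in implantation B, 1440, 1360 and 1537 CPM in defect, and 1.26, 2.28 and 1.46 CPM in normal. The 3 groups were well apart, with implantation B again in the middle. Implantation B was 7.76-fold lower than defect (log2 fold change -2.96 ± 0.0592 SE, adjusted p = 3.23e-51), and the groups were 114-fold and 883-fold over normal.

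EGR1, a zinc finger transcription factor induced by injury, stretch and growth factors (chromosome 2, 140440829 to 140445302), went the other way. In implantation B it stood at 2410, 2455 and 2379 CPM. The levels in defect were 25.1, 21.2 and 37.5 CPM, from 5, 5 and 588 counts, and those in normal were 30.6, 29 and 26.8 CPM. Defect and normal overlapped, and implantation B lay far above both, 65.7-fold over defect (log2 fold change 6.04 ± 0.0855 SE, adjusted p = 6.8e-60). The differences of COL6A5, CHI3L1 and EGR1 passed in every alternative setting, also with defect 3 left out and with defect 1 and 2 left out.

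**Figure D1:**
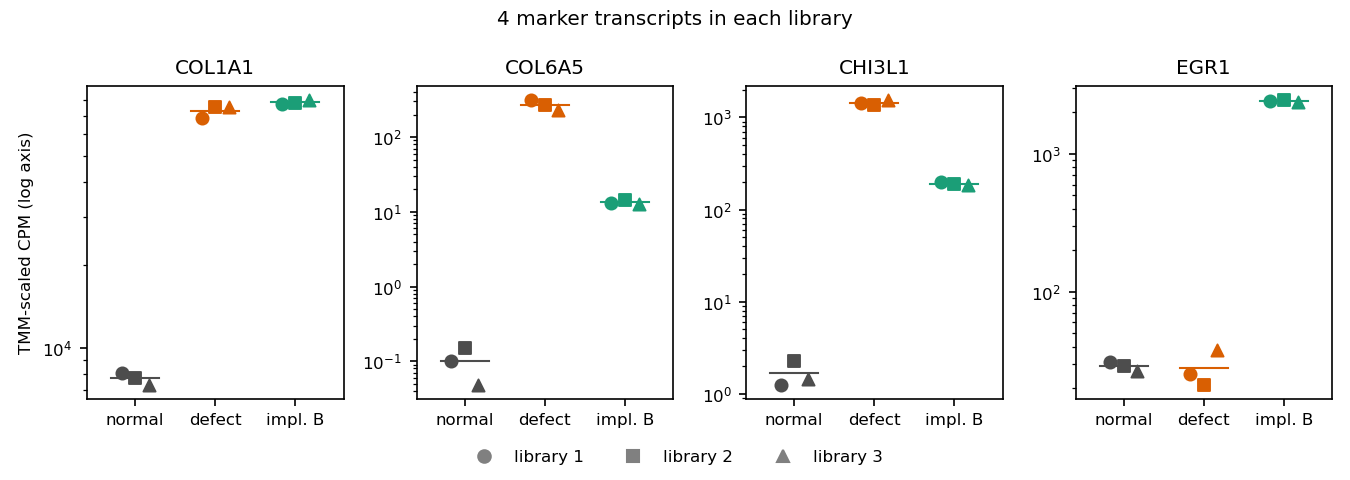
Levels of COL1A1, COL6A5, CHI3L1 and EGR1 in each library, as TMM-scaled CPM on a log axis, in normal, defect and implantation B (impl. B). Circles, squares and triangles are libraries 1, 2 and 3. COL1A1 is alike in defect and implantation B, COL6A5 and CHI3L1 are intermediate in implantation B, and EGR1 is high in implantation B, with defect at 21.2 to 37.5 CPM and implantation B at 2379 to 2455 CPM.

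Over all genes, 5164 of 17657 tested (29.2%) changed between implantation B and defect at an adjusted p under 0.05 by edgeR's quasi-likelihood test. Of all genes 15% were higher in implantation B (2653 genes) and 14.2% lower (2511 genes), and for 7.78% the difference was 2-fold or more. Scaling by library size alone gave a different split, in which 3343 were higher and 2029 lower. The deposited TPM values (transcript levels scaled for length and depth) gave 1281 higher and 583 lower. With defect 1 and 2 left out, which leaves 1 defect library assumed to vary like the others, 5129 genes changed. Without defect 3, where the defect group is only the 2 shallow libraries, 673 of 18056 genes tested changed, 392 higher and 281 lower. Counts of list members without defect 3 are to be read beside these.

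The largest differences among genes with a symbol, a mean level of 3 or more in log2 CPM and libraries that did not overlap were FOSB, FOS, WFDC2, DMBT1, EGR1, NR4A3, EGR3 and TSPAN1 on the higher side and ARG1, MMP13, SAA3, BCAN, ADAMDEC1, COL6A5, MMP9 and MASP1 on the lower side. The first list holds 5 immediate early genes and 3 genes of secretory epithelium. The second holds the proteases MMP13, MMP9, ADAMDEC1 and MASP1, besides ARG1, SAA3, COL6A5 and BCAN. The mean level is taken over all 9 libraries, so a gene can reach it through 1 group, as BCAN did through normal and WFDC2, DMBT1 and TSPAN1 did mainly through implantation B. The ranks are therefore a description. BCAN, the proteoglycan brevican, stood at 0.0583, 0.312 and 0 CPM in implantation B, at 5.02, 4.24 and 4.46 CPM in defect and at 60.2 to 65.1 CPM in normal, so both groups lay below normal. Its log2 fold change was -5.15 ± 0.652 (SE, adjusted p = 1.93e-16), and it did not pass without defect 3 (-5.17). MASP1, a serine protease of the lectin pathway of complement, was 13.8-fold lower in implantation B, at 11.3, 9.85 and 12.1 CPM against 171, 140 and 153 CPM in defect (adjusted p = 2.36e-44).

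A scar transcript was called raised in a group where it was at least 2-fold above normal with an adjusted p under 0.05. Of all genes 38.2% were higher and 37.2% lower in implantation B than in normal, and 33.2% higher and 31.5% lower in defect than in normal. By the 2-fold rule 12.6% were raised in defect, 13.0% in implantation B and 8.85% in both. Of the 138 scar transcripts listed, 136 had a row and 133 had enough counts to be tested. MMP7, MARCO and MPO were not tested, and COL6A1 and HAS2 were not analysed here. Of the 92 raised in defect, 81 were raised in implantation B too and 11 were not. Among the 81, 52 were lower in implantation B than in defect, 9 were higher and 20 did not pass between the groups, so that 64.2% were lower. Of all 1563 genes raised in both groups, 26.9% were lower in implantation B, 18.4% higher and 54.7% did not pass. The scar lists were chosen with earlier results of these data known and were not matched to all genes for level. The contrast of these shares is therefore a description. A further 7 scar transcripts were raised in implantation B alone, and 34 in neither. The 2 comparisons with normal share the 3 normal libraries. Without defect 1 and 2 the same counts were 93 raised in defect, 82 in both, and 53 lower, 9 higher and 20 not passed. Without defect 3 they were 76 raised in defect, 68 in both, and 33 lower, 7 higher and 28 not passed.

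The 20 shared transcripts that did not pass between implantation B and defect included some of the most abundant of the scar. Among them were COL1A1 and COL1A2, SPARC (osteonectin, which binds collagen and calcium), COL6A3 (a large collagen VI chain), FMOD (fibromodulin, a proteoglycan of collagen fibrils), THBS1 (thrombospondin), PLOD2 (a lysyl hydroxylase), and the macrophage scavenger receptors CD163 and MRC1. FMOD, THBS1, PLOD2 and MRC1 are named after their values were seen. SPARC stood at 18013, 18523 and 18531 CPM in implantation B, at 18477, 19947 and 19857 CPM in defect and at 5382 to 5914 CPM in normal. COL6A3 stood at 8176, 8217 and 8295 CPM in implantation B against 8493, 8548 and 9069 CPM in defect, 6.37-fold and 6.76-fold over normal. Without defect 1 and 2 its log2 difference between the groups passed (-0.14, adjusted p = 0.0409). That a difference missed the threshold does not show that these levels were equal, but the SE of the 4 abundant genes lay between 0.044 and 0.0466 on the log2 scale.

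The 9 shared transcripts that were higher in implantation B included POSTN, COL11A1, COL2A1, CTGF, P4HA1, SKIL, MFAP5 and MMP12. POSTN (periostin, a matricellular protein of healing tissue) stood at 4342, 4343 and 4356 CPM in implantation B, at 2493, 2673 and 2790 CPM in defect and at 378 to 458 CPM in normal. It was 1.62-fold higher in implantation B than in defect (log2 fold change 0.69 ± 0.0542 SE, adjusted p = 3.21e-17). CTGF, connective tissue growth factor, stood at 424, 426 and 479 CPM against 186, 220 and 235 CPM in defect, 1.92-fold higher. In both genes the libraries of the groups did not overlap, and normal lay lowest. P4HA1 (a collagen prolyl hydroxylase), SKIL (a repressor of SMAD proteins) and MFAP5 (a microfibril protein) differed less, with log2 fold changes of 0.44, 0.30 and 0.51. They did not pass without defect 3 (0.46, 0.61 and 0.45), nor did SKIL without implantation B 1 (0.31), defect 1 (0.30) or defect 1 and 2 (0.29). P4HA1, SKIL, MFAP5 and MMP12 are named after their values were seen.

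The 11 transcripts raised in defect alone were MMP14, COL5A3, TIMP1, ADAM12, ITGB2, ARG1, FCER1G, NOX4, TYROBP, AIF1 and LOXL4. All 11 passed as lower in implantation B than in defect, a direction that the choice of the class largely fixes, since of all 658 genes raised in defect alone 459 were lower in implantation B and 0 higher. The 2-fold limit decided the class of TIMP1 and FCER1G, for which implantation B was also 1.81-fold and 1.82-fold over normal. ARG1, arginase 1, which breaks down arginine and is made by wound macrophages of rodents, stood at 0.117, 0.249 and 0.442 CPM in implantation B. It stood at 65.2, 38.1 and 59.5 CPM in defect and at 0.0992 to 0.292 CPM in normal. Implantation B and normal overlapped, and implantation B was 207-fold lower than defect (log2 fold change -7.70 ± 0.431 SE, adjusted p = 1.85e-41). MMP14, a membrane-bound collagenase activator, stood at 514, 523 and 515 CPM in implantation B, at 1023, 1084 and 1130 CPM in defect and at 358 to 419 CPM in normal. Several of the others had few counts in the shallow libraries. AIF1, for instance, had 0, 1 and 214 counts in defect. Without defect 3 the log2 fold change of AIF1 turned to 1.93, that of TYROBP to 0.21, and FCER1G (-0.08), NOX4 (-0.53), ITGB2 (-0.61) and LOXL4 (-1.41) did not pass. NOX4 is named to complete the 11, after its values were seen.

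The 7 raised in implantation B alone were VCAN, ADAMTS1, P4HA3, C1QA, TNFAIP6, TWIST1 and PCOLCE, of which the first 6 were also higher than in defect, again a direction that the class largely fixes (534 of all 729 such genes higher and 0 lower). ADAMTS1, a protease that cuts proteoglycans such as versican, stood at 481, 454 and 485 CPM in implantation B, at 145, 136 and 128 CPM in defect and at 62.7 to 68.5 CPM in normal, 3.66-fold over defect (adjusted p = 1.41e-33). Its libraries were well separated. TNFAIP6, a hyaluronan-binding protein induced in inflammation, stood at 80.5, 78.6 and 76.2 CPM against 40.1, 33.9 and 28.3 CPM in defect. The 2-fold limit decided the class of several, since defect was also over normal, by 1.99-fold for P4HA3, 1.96-fold for ADAMTS1, 1.92-fold for PCOLCE (the procollagen C-proteinase enhancer), 1.84-fold for C1QA and 1.74-fold for VCAN (versican). C1QA and TWIST1, a transcription factor of mesenchymal cells, had log2 fold changes of 0.33 and 0.56 and did not pass without defect 3 (0.66 and 0.82). TNFAIP6 and TWIST1 are named after their values were seen.

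**Figure D2:**
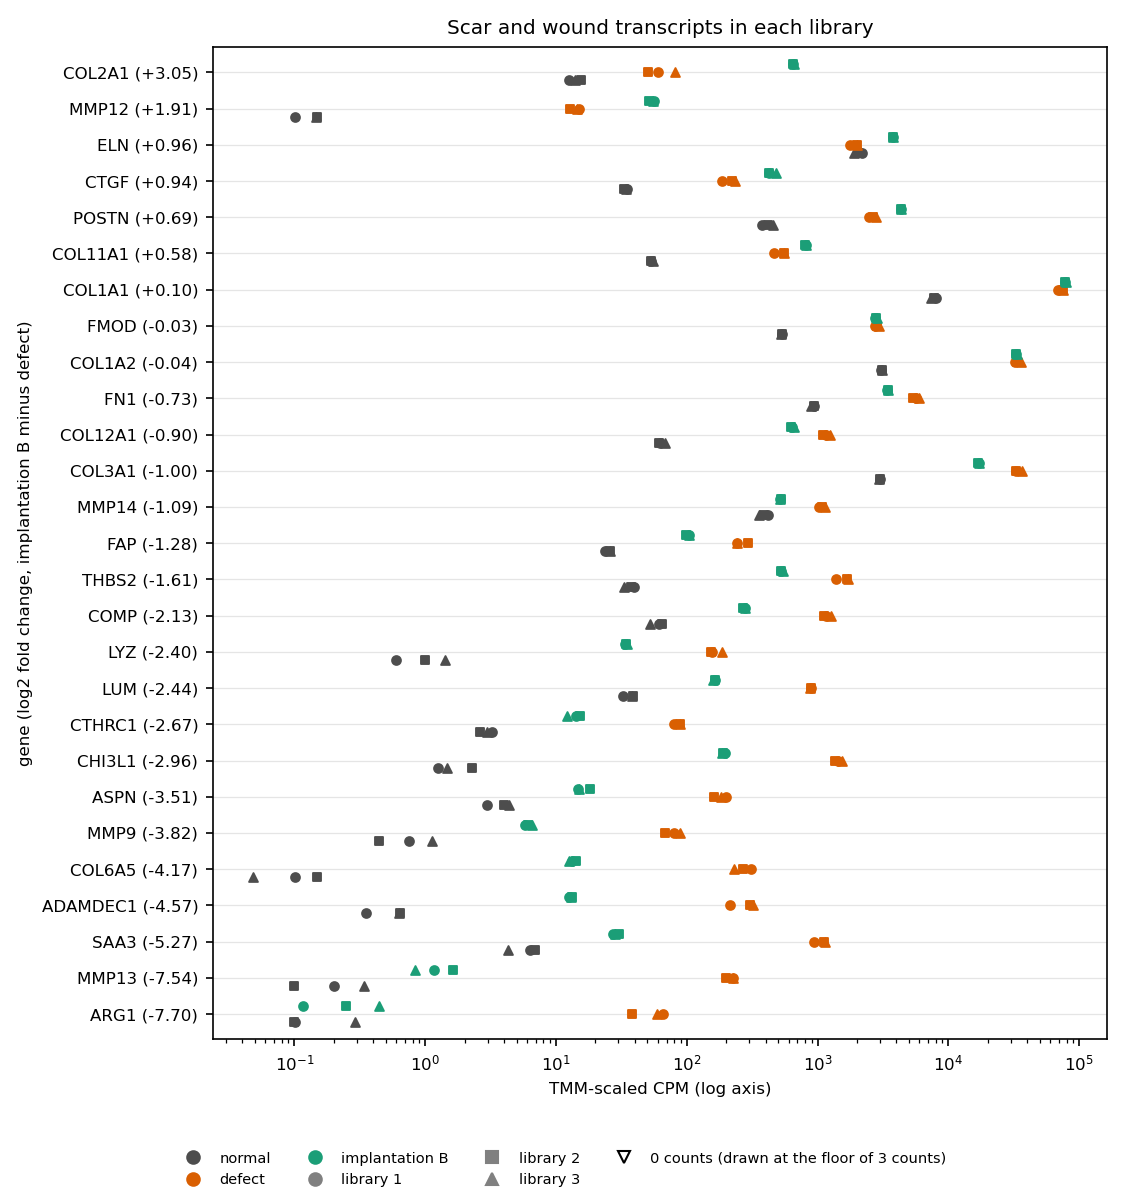
Scar and wound transcripts in each library, as TMM-scaled CPM on a log axis, with genes ordered by the log2 fold change of implantation B minus defect given in brackets. Green points are implantation B, orange defect and dark grey normal, and circles, squares and triangles are libraries 1, 2 and 3. COL2A1 (3.05) is at the top, FMOD, COL1A1 and COL1A2 lie near 0, and MMP13 (-7.54) and ARG1 (-7.70) are at the bottom.

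Among 12 fibrillar collagen chains and the collagens bound to fibrils, 3 were higher in implantation B, 7 lower and 2 did not pass, with a median log2 fold change of -0.33, where all genes had a median of 0.00837 and quartiles of -0.239 and 0.261. Their summed level, taken without TMM factors as for every list sum, was 126606 ± 986 CPM in implantation B, 139712 ± 2191 CPM in defect but 18027 ± 109 CPM in normal (SD, n = 3). COL3A1, the type III chain of young scar (chromosome 15, 93556914 to 93595678), stood at 17180, 16945 and 17105 CPM in implantation B, at 33035, 32829 and 36321 CPM in defect and at 2973 to 3018 CPM in normal. Implantation B held the middle place, 2-fold below defect (log2 fold change -1.0 ± 0.0444 SE, adjusted p = 2.2e-30). COL12A1, which coats collagen fibrils, stood at 639, 627 and 655 CPM against 1154, 1101 and 1237 CPM in defect, 1.87-fold lower. COL5A3, a minor fibril chain, stood at 71.9, 79.5 and 82.4 CPM in implantation B, overlapping normal at 74.3 to 84.3 CPM, and at 246, 225 and 222 CPM in defect.

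COL2A1, the type II chain that is typical of cartilage, was the fibril chain with the largest rise. It stood at 648, 644 and 666 CPM in implantation B, at 60.2, 50.8 and 80.9 CPM in defect and at 12.6 to 15.5 CPM in normal, 8.27-fold over defect (log2 fold change 3.05 ± 0.0776 SE, adjusted p = 1.2e-43). COL11A1, which assembles with type II and type I collagen, stood at 821, 798 and 816 CPM against 462, 551 and 556 CPM in defect, 1.49-fold higher. Neither gene's libraries overlapped between the groups. Of 10 cartilage and bone genes, 3 were higher, 3 lower and 4 did not pass. SOX9, the transcription factor of cartilage, stood at 159, 171 and 161 CPM in implantation B against 105, 80.5 and 95.4 CPM in defect (log2 fold change 0.79). IBSP, bone sialoprotein, went the other way with 0.0553 to 0.187 CPM in implantation B and 45.2, 29.7 and 18 CPM in defect, from 9, 7 and 283 counts (-7.31 ± 0.633 SE). CHAD, chondroadherin of cartilage, had a log2 fold change of -1.25, or -0.78 without defect 3.

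The balance of the type I and type III chains within a library was examined after their values had been seen. The ratio of COL1A1 to COL3A1 counts was 4.508, 4.603 and 4.663 in implantation B, 2.084, 2.294 and 2.068 in defect and 2.71, 2.566 and 2.465 in normal. Every library of implantation B lay above all others. An exact two-sided permutation test of implantation B against defect gave p = 0.1, the smallest that 3 libraries against 3 allow. Since the ratio was chosen with the separation of the groups already seen, the test adds no support. The ratio is one of read counts, not corrected for transcript length, so only its differences between libraries can be read.

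Of 4 collagen VI chains tested, 1 was higher in implantation B and 2 were lower. COL6A2 stood at 5185, 5130 and 5127 CPM against 5664, 6125 and 6196 CPM in defect, a log2 fold change of -0.23. COL6A6 was the higher one, at 14.1, 13.8 and 16.1 CPM in implantation B and at 0, 0 and 4.02 CPM in defect, and its counts of 0 lie in the 2 shallow libraries, below their floors. Normal held 10.6 to 11.5 CPM of COL6A6, close to implantation B. Its log2 fold change of 1.92 became 10.61 without defect 3, a value that depends on the prior count.

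Enzymes that modify and crosslink collagen moved less. Of 16 tested, 2 were higher in implantation B, 8 lower and 6 did not pass, with a median log2 fold change of -0.15. LOX, the lysyl oxidase that crosslinks collagen, stood at 258, 253 and 258 CPM in implantation B, at 331, 275 and 291 CPM in defect and at 30.8 to 33.5 CPM in normal. Both groups lay far above normal and close to each other, and the log2 fold change between them was -0.19 ± 0.0663 (SE, adjusted p = 0.0218). That call was lost without each library of implantation B in turn (-0.18, -0.16 and -0.18) and without defect 3 (-0.22). LOXL2, a related oxidase, stood at 111, 115 and 114 CPM against 156, 174 and 199 CPM in defect, and normal overlapped with implantation B. ADAMTS2, which trims procollagen, had a log2 fold change of -0.50 between the groups and was 8.57-fold over normal in implantation B and 12.1-fold in defect. Without defect 3 LOXL2 (-0.53) did not pass, and 1 gene of the list was higher and 1 lower.

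Of 21 provisional and matricellular matrix transcripts, 7 were higher in implantation B, 11 lower and 3 did not pass (5 and 9 without defect 3). The median log2 fold change was -0.19. FN1, fibronectin, stood at 3388, 3460 and 3470 CPM in implantation B, at 5639, 5409 and 5919 CPM in defect and at 889 to 944 CPM in normal, 1.65-fold lower than defect (adjusted p = 1.64e-21). The 3 members with the smallest p were LUM, ASPN and COMP, all lower in implantation B, while other small proteoglycans of the list differed less, with log2 fold changes of -0.26 for BGN and -0.19 for DCN, and -0.03 for FMOD, which did not pass. DCN, named after its values were seen, did not pass without defect 3 (-0.16). LUM, lumican, stood at 163, 163 and 159 CPM against 888, 885 and 875 CPM in defect, 5.44-fold lower. ASPN, asporin, stood at 14.7, 18.1 and 15.1 CPM against 201, 161 and 182 CPM, 11.4-fold lower. COMP, which links collagen fibrils, stood at 281, 269 and 278 CPM against 1154, 1127 and 1258 CPM, 4.39-fold lower. In all 3 the libraries did not overlap and implantation B stayed above normal, where LUM held 32.8 to 39, ASPN 2.96 to 4.38 and COMP 52.1 to 64.3 CPM.

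ELN, elastin, was a matrix transcript raised in neither group by the 2-fold rule. It stood at 3769, 3785 and 3782 CPM in implantation B, at 1771, 2008 and 1989 CPM in defect and at 1915 to 2182 CPM in normal. Defect and normal overlapped, and implantation B was 1.94-fold over defect and 1.85-fold over normal (log2 fold change over defect 0.96 ± 0.0533 SE, adjusted p = 4.39e-25).

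Matrix proteases and their inhibitors showed the largest gaps among the matrix lists. Of 19 tested, 4 were higher in implantation B and 13 lower (3 and 9 without defect 3), with a median log2 fold change of -0.36. Their summed level was 8032 ± 127 CPM in implantation B, 11911 ± 139 CPM in defect, with 4374 ± 66 CPM in normal (SD, n = 3). MMP13, a collagenase, stood at 1.17, 1.62 and 0.83 CPM in implantation B, at 226, 199 and 226 CPM in defect and at 0.0992 to 0.341 CPM in normal. It was 186-fold lower in implantation B than in defect (log2 fold change -7.54 ± 0.208 SE, adjusted p = 1.01e-55), and still 5.37-fold over normal. ADAMDEC1, a protease of macrophages, stood at 12.6, 13.3 and 12.9 CPM against 216, 305 and 320 CPM, 23.7-fold lower. MMP9, a gelatinase of neutrophils and macrophages, stood at 5.77, 6.11 and 6.58 CPM against 80.3, 67.8 and 89.2 CPM, 14.1-fold lower. For these genes implantation B lay between normal and defect in every library.

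Among other members, MMP12 was higher in implantation B, and MMP3 was lower by less. MMP12, the macrophage elastase, stood at 56.5, 51.4 and 54.7 CPM in implantation B, at 15.1, 12.7 and 14.5 CPM in defect, from 3, 3 and 227 counts, and at 0.1 to 0.149 CPM in normal. It was 3.75-fold higher in implantation B than in defect (log2 fold change 1.91 ± 0.129 SE, adjusted p = 1.78e-21). MMP3, stromelysin, stood at 263, 257 and 263 CPM in implantation B against 381, 330 and 322 CPM in defect, with 4.71 to 6.33 CPM in normal. Its log2 fold change of -0.33 passed as lower (adjusted p = 5.79e-05), and did so in 19 of 21 alternative settings. TIMP1, an inhibitor of these enzymes, stood at 106, 101 and 108 CPM against 186, 191 and 224 CPM in defect, 2.07-fold lower. MMP3 is named after its values were seen.

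Of 13 activated fibroblast genes, 1 was higher in implantation B, 10 were lower and 2 did not pass (0 and 6 without defect 3), with a median log2 fold change of -0.59. ADAM12, a protease of myofibroblasts, stood at 43.8, 43.3 and 44.5 CPM in implantation B, at 176, 131 and 150 CPM in defect and at 50.5 to 58.9 CPM in normal, so implantation B was lowest. FAP, fibroblast activation protein, stood at 104, 98.5 and 104 CPM against 241, 292 and 243 CPM, 2.42-fold lower. PDPN, podoplanin, which activated fibroblasts and lymphatic endothelium carry, stood at 53, 52.8 and 58.9 CPM against 130, 161 and 130 CPM, 2.4-fold lower. FAP and PDPN lay above normal in both groups. ACTA2, the smooth muscle actin that myofibroblasts also make, stood at 705, 692 and 722 CPM in implantation B, at 607, 572 and 662 CPM in defect and at 660 to 703 CPM in normal. Its log2 fold change was 0.14 ± 0.059 (SE, adjusted p = 0.0653), and it passed with library size alone (0.18) and in the fit of 15 libraries (0.17).

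Of 15 genes of transforming growth factor beta signalling, 1 was higher in implantation B, 7 were lower and 7 did not pass (0 and 2 without defect 3). TGFB1, a ligand, stood at 80, 84.4 and 78.4 CPM in implantation B, at 85.3, 97.4 and 105 CPM in defect and at 114 to 129 CPM in normal. It was lowest in implantation B (log2 fold change -0.36 ± 0.08 SE, adjusted p = 0.00019). TGFB3, another ligand, stood at 115, 107 and 113 CPM against 161, 140 and 172 CPM, and LTBP2, of the family of proteins that bind latent ligand, at 330, 327 and 333 CPM against 707, 635 and 662 CPM. TGFBI, a matrix protein induced by the pathway, stood at 346, 349 and 355 CPM against 492, 496 and 568 CPM, 1.57-fold lower. TGFB3, LTBP2 and TGFBI were above normal in both groups. Without defect 3 the log2 fold changes of TGFB1 (-0.17) and TGFB3 (-0.41) did not pass.

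Macrophage genes split. Of 20 tested, 3 were higher in implantation B, 12 lower and 5 did not pass (0 and 4 without defect 3), with a median log2 fold change of -0.47. In bulk RNA, fewer cells of a type and less RNA per cell cannot be told apart. LYZ, lysozyme, stood at 33.7, 34.3 and 34.7 CPM in implantation B, at 156, 152 and 186 CPM in defect and at 0.603 to 1.41 CPM in normal, 5.28-fold below defect (adjusted p = 1.86e-36). GPNMB, a glycoprotein of lipid-laden and repair macrophages, stood at 196, 195 and 199 CPM against 296, 318 and 315 CPM, 1.6-fold lower. CD163, the haemoglobin scavenger receptor, did not follow them, at 92, 94.5 and 90.9 CPM in implantation B, 90.3, 102 and 103 CPM in defect and 28.7 to 29.8 CPM in normal. Its log2 fold change was -0.14 ± 0.0797 (SE, adjusted p = 0.182). The 3 higher genes were the complement C1q chains C1QA, C1QB and C1QC, with log2 fold changes of 0.33, 0.20 and 0.20. None of the 3 passed without defect 3 (0.66, 0.35 and 0.52), C1QB was lost without implantation B 2 (0.20), and C1QC was lost without implantation B 1 (0.21) or defect 1 (0.17). Without defect 1 and 2 C1QB (0.18) and C1QC (0.16) did not pass.

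The summed macrophage list stood at 2213 ± 29.5 CPM in implantation B, 3671 ± 88.5 CPM in defect, with 4607 ± 154 CPM in normal (SD, n = 3). Most of the normal sum came from APOE, apolipoprotein E, which other cells also make, at 3228 to 3622 CPM there, 893 to 995 CPM in defect and 824 to 864 CPM in implantation B. Without defect 3 APOE had a log2 fold change of -0.16 between implantation B and defect and did not pass.

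Of 13 neutrophil and acute phase genes, 1 was higher in implantation B, 5 were lower and 7 did not pass (3 and 1 without defect 3). SAA3, an acute phase serum amyloid that tissue cells make, stood at 27.1, 30.4 and 28 CPM in implantation B, at 943, 1114 and 1142 CPM in defect and at 4.33 to 6.9 CPM in normal. It was 38.7-fold lower in implantation B than in defect (log2 fold change -5.27 ± 0.077 SE, adjusted p = 9.08e-49). PTX3, a pentraxin of innate immunity, was the higher one, at 102, 113 and 107 CPM against 40.1, 67.8 and 48.1 CPM in defect, and normal was highest at 298 to 313 CPM. The calgranulins S100A9 and S100A12, which neutrophils and squamous epithelium make, were close in both groups, at 593, 597 and 587 CPM against 522, 419 and 585 CPM for S100A9 and at 617, 612 and 622 CPM against 552, 428 and 598 CPM for S100A12. Neither passed in the fit of all libraries, and without defect 3 both did (0.36 for each). S100A8, another calgranulin of the list, passed as lower in implantation B (log2 fold change -0.21, adjusted p = 0.0118). Without defect 3 it turned to 0.0582 and did not pass. These calgranulins are named after their values were seen.

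Immediate early genes formed the group with the largest shift. Of 23 tested, 22 were higher in implantation B and 0 lower, with a median log2 fold change of 3.18, where 15% of all genes were higher. Without defect 3 the count was 21, and without defect 1 and 2 it was 22. Their summed level was 13996 ± 68.7 CPM in implantation B, 1226 ± 58.6 CPM in defect, with 1322 ± 61.8 CPM in normal (SD, n = 3), so implantation B stood apart from both of the others. Against normal, 15 of the 23 were higher in defect and 4 lower, with a median log2 fold change of 0.41. Of all genes 33.2% were higher and 31.5% lower in that comparison. The sum of defect, taken without TMM factors, was below that of normal and so does not stand for most members.

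FOSB, a subunit of the AP-1 transcription factor, stood at 2512, 2568 and 2562 CPM in implantation B, at 0, 12.7 and 3.76 CPM in defect, from 0, 3 and 59 counts, and at 1.9 to 2.36 CPM in normal. Its fitted log2 fold change over defect was 9.37 ± 0.189 (SE, adjusted p = 1.51e-63). FOS, its close relative, stood at 2292, 2314 and 2314 CPM in implantation B, at 25.1, 4.24 and 14.8 CPM in defect and at 2.38 to 3.32 CPM in normal, 156-fold over defect (adjusted p = 2.69e-61). Defect was itself 5.37-fold over normal for FOS, a smaller gap than that to implantation B. JUN, their AP-1 partner, stood at 914, 919 and 919 CPM against 105, 89 and 110 CPM in defect, and normal was above defect at 150 to 182 CPM. NR4A3, an orphan nuclear receptor, stood at 111, 120 and 118 CPM in implantation B and at 0, 4.24 and 4.72 CPM in defect, a log2 fold change of 4.64. EGR3, a relative of EGR1, stood at 177, 181 and 180 CPM against 5.02, 0 and 7.46 CPM, a log2 fold change of 4.62.

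Other members included feedback genes that limit the same response. DUSP1, a phosphatase that switches off stress kinases, stood at 1030, 1049 and 1035 CPM in implantation B, at 55.2, 93.2 and 64.7 CPM in defect and at 55.8 to 60.7 CPM in normal, 15.9-fold over defect. BTG2, which slows cell division, was 15.1-fold higher and ATF3, a stress-induced repressor, 18.4-fold higher. FOSL1 was the member that did not pass, at 3.5, 2.56 and 3.48 CPM in implantation B and 20.1, 4.24 and 2.1 CPM in defect, from 4, 1 and 33 counts (log2 fold change 0.36, adjusted p = 0.5). It turned to -1.84 without defect 3, again without passing, and to 0.57 and 0.60 without defect 1 and without defect 1 and 2. MYC, a growth-promoting transcription factor, had a log2 fold change of 0.53 that did not pass without defect 3 (0.89), and KLF6 had 0.89, or 1.66 there. Of 12 heat shock chaperones, 6 were higher and 1 was lower (1 and 0 without defect 3), with log2 fold changes of 0.92 for HSPH1, 0.63 for DNAJA1 and 0.54 for DNAJB1, of which HSPH1 (0.71) and DNAJB1 (0.70) did not pass without defect 3 and DNAJA1 was 1.01 there.

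**Figure D3:**
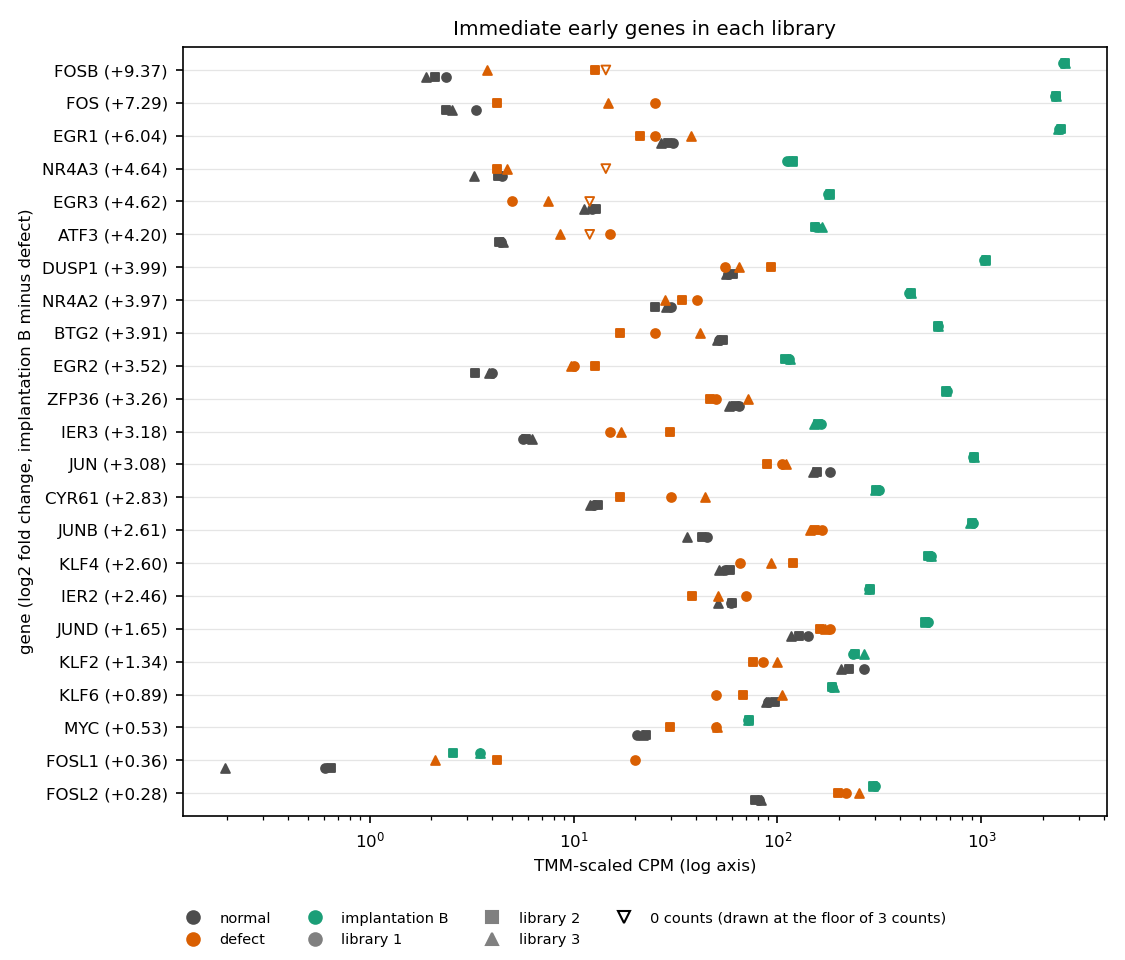
The 23 immediate early genes in each library, as TMM-scaled CPM on a log axis, ordered by the log2 fold change of implantation B minus defect given in brackets. Green is implantation B, orange defect and dark grey normal, circles, squares and triangles are libraries 1, 2 and 3, and an open triangle marks 0 counts, drawn at the floor of 3 counts. Implantation B lies to the right of defect and normal for most genes, from FOSB (9.37) down to FOSL2 (0.28).

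Endothelial markers were lower in implantation B than in defect, and in defect 18 of 20 were already lower than in normal. Of all genes 31.5% were lower in defect than in normal. Between implantation B and defect, of 20 tested, 0 were higher and 18 lower, with a median log2 fold change of -0.57, where 14.2% of all genes were lower. Their summed level was 2083 ± 13.8 CPM in implantation B, 2909 ± 103 CPM in defect, with 5749 ± 108 CPM in normal (SD, n = 3). EGFL7, secreted by endothelium, stood at 78.8, 71.7 and 70.2 CPM in implantation B, at 130, 140 and 154 CPM in defect and at 447 to 502 CPM in normal, 2.06-fold below defect (adjusted p = 5.54e-20). CLDN5, the tight junction claudin of endothelium, stood at 70.5, 68.3 and 69.2 CPM against 145, 131 and 135 CPM, 1.95-fold lower. VWF, von Willebrand factor, stood at 694, 706 and 712 CPM in implantation B, below both defect at 973, 1080 and 1089 CPM and normal at 965 to 1074 CPM. PECAM1, an adhesion molecule of endothelial junctions, stood at 412, 410 and 415 CPM against 597, 436 and 533 CPM (log2 fold change -0.35 ± 0.0612 SE). Without defect 3 PECAM1 (-0.30) and NOS3 (-0.18) did not pass. The count of lower genes in the list was then 4 of 20, where 281 of all 18056 genes tested were lower. It was 18 without defect 1 and 2.

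The nitric oxide and cyclic GMP pathway relaxes cavernous smooth muscle and so allows erection. Of 15 genes tested, 2 were higher in implantation B and 8 lower (1 and 1 without defect 3), with a median log2 fold change of -0.44. NOS3, the endothelial nitric oxide synthase, stood at 84.4, 78.7 and 83.8 CPM in implantation B, at 85.3, 102 and 113 CPM in defect and at 275 to 303 CPM in normal. It was 1.35-fold below defect, with defect 1 just above the highest library of implantation B, and did not pass without defect 3 (-0.18). PDE5A, the phosphodiesterase that ends the signal, stood at 93.7, 100 and 93.5 CPM against 50.2, 38.1 and 82.8 CPM in defect and 35 to 42.5 CPM in normal. Its log2 fold change of 0.27 (adjusted p = 0.0231) was 1.15 without defect 3 and 0.21 without defect 1 and 2, where it did not pass. PRKG2, a cyclic GMP kinase, had 3, 1 and 39 counts in defect and 0.0583 to 0.249 CPM in implantation B, a log2 fold change of -4.29. NOS2, the inducible synthase, had -1.12 and did not pass without defect 3 (-1.11).

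Contractile smooth muscle genes mostly differed by small amounts. Of 20 tested, 2 were higher in implantation B, 6 lower and 12 did not pass (1 and 1 without defect 3), with a median log2 fold change of -0.10. The share lower was 30%, above the 14.2% of all genes, and the share higher was 10%, below the 15% of all genes. MYH11, the smooth muscle myosin heavy chain, stood at 1044, 1046 and 1052 CPM in implantation B, at 1018, 1144 and 1119 CPM in defect and at 1104 to 1163 CPM in normal. The groups overlapped, and the log2 difference was -0.08 ± 0.0545 (SE, adjusted p = 0.286). CALD1, caldesmon, which non-muscle cells also make, stood at 285, 283 and 279 CPM against 401, 445 and 475 CPM in defect and 168 to 187 CPM in normal, 1.64-fold lower than defect. ACTN1 and DES, an actinin and the muscle filament desmin, had log2 fold changes of -0.40 and -0.38 and did not pass without defect 3 (-0.27 and -0.36).

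Of 21 angiogenic ligands and receptors, 3 were higher in implantation B and 11 lower (0 and 0 without defect 3). VEGFA, the main vascular growth factor, stood at 104, 99.7 and 102 CPM in implantation B, at 95.3, 93.2 and 59.5 CPM in defect and at 183 to 205 CPM in normal. The log2 fold change of 0.72 ± 0.0867 (SE, adjusted p = 3.86e-10) rests on defect 3, and without that library it was 0.12 and did not pass. APLNR, the apelin receptor, stood at 24.7, 24.9 and 25.8 CPM against 60.2, 29.7 and 72.2 CPM, a log2 fold change of -1.47, and NRP2, a co-receptor, had -0.56. Neither passed without defect 3 (-0.78 and -0.21). Of 6 lymphatic endothelial markers, 0 were higher and 3 lower, namely LYVE1 (-1.56), CCL21 (-1.02) and FLT4 (-0.65). CCL21, a chemokine of lymphatic vessels, stood at 57.7, 54.7 and 53 CPM in implantation B, at 140, 97.4 and 111 CPM in defect and at 0.893 to 1.12 CPM in normal, so both groups lay far above normal. Without defect 3 it was the member that stayed called, while LYVE1 (-1.25) and FLT4 (-0.99) did not pass.

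Genes of dividing cells were lower in implantation B than in defect. Of 22 mitotic and S phase genes, 0 were higher and 17 lower, with a median log2 fold change of -0.80. Their summed level was 269 ± 2.55 CPM in implantation B, 426 ± 15.4 CPM in defect, with 288 ± 1.98 CPM in normal (SD, n = 3). These sums carry no TMM factors, and most members were not below normal in implantation B. In the fit 16 of the 22 were higher and 4 lower there than in normal, with a median log2 fold change of 0.80. Of all genes 38.2% were higher and 37.2% lower in that comparison. MKI67, a protein of dividing cells, stood at 34.2, 36.2 and 32.9 CPM in implantation B, at 65.2, 84.7 and 69 CPM in defect and at 17.8 to 19 CPM in normal, 2.02-fold below defect (adjusted p = 1.35e-14). RRM2, which makes nucleotides for DNA, stood at 13.9, 11 and 11.8 CPM against 45.2, 46.6 and 30.2 CPM, 2.56-fold lower. Each library of implantation B lay between normal and defect for both genes. TOP2A, a topoisomerase, had a log2 fold change of -1.14 that did not pass without defect 3 (-0.80). There 2 genes of the list were lower, and without defect 1 and 2 it was 18.

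**Figure D4:**
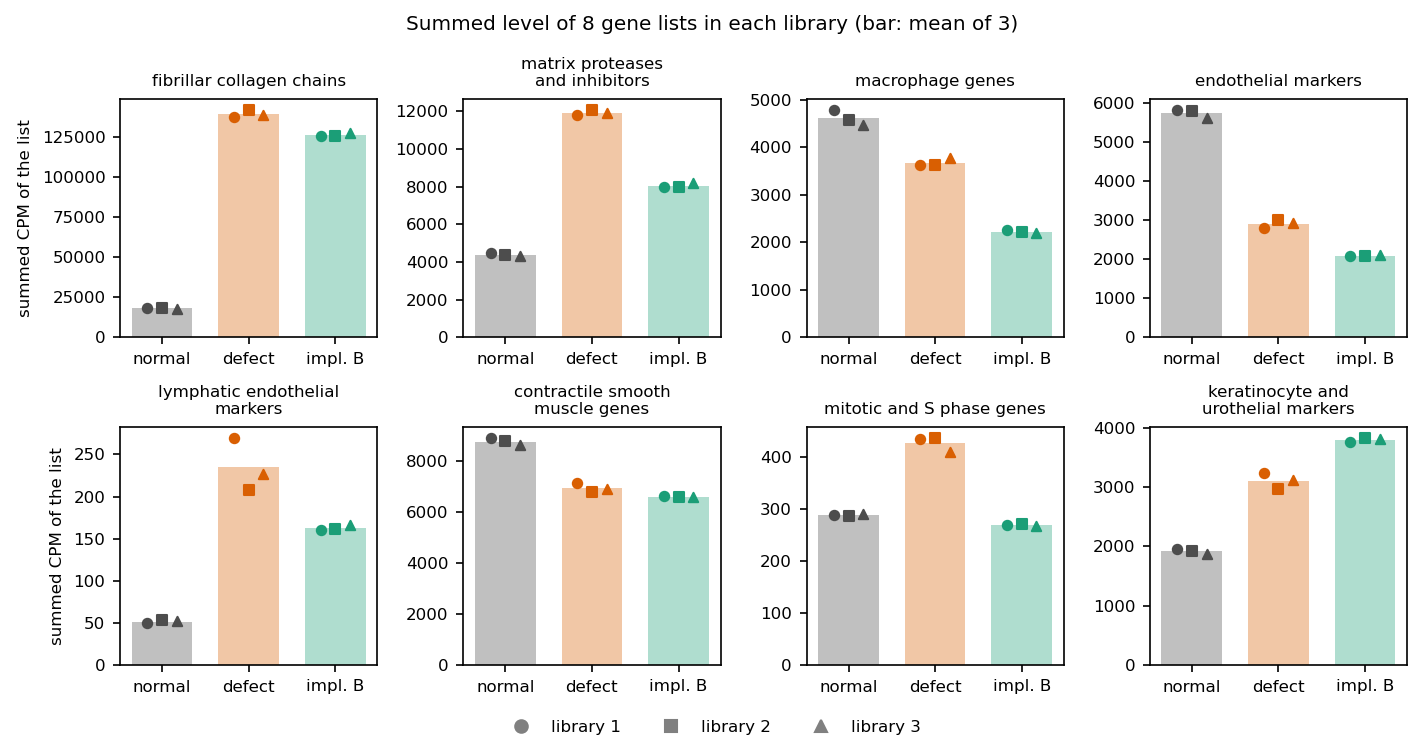
Summed level of 8 gene lists in each library, as CPM without TMM factors on linear axes from 0, in normal, defect and implantation B (impl. B). Bars are means of 3 libraries and points the libraries. Endothelial markers fall from 5749 in normal to 2909 in defect and 2083 in implantation B, while keratinocyte and urothelial markers go from 1914 to 3108 and 3803.

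Antigen presentation genes were lower and interferon-stimulated genes partly higher. Of 12 antigen presentation genes, 0 were higher in implantation B and 10 lower (0 and 2 without defect 3), with a median log2 fold change of -0.50. CD74, the chaperone of class II molecules, stood at 494, 488 and 482 CPM in implantation B, at 697, 640 and 796 CPM in defect and at 986 to 1058 CPM in normal. SLA-DRA, a class II chain, stood at 298, 299 and 300 CPM against 467, 432 and 474 CPM, with normal at 304 to 326 CPM. Single values of SLA genes are uncertain, because reads of such similar genes may have been split among them. Of 23 interferon-stimulated genes, 10 were higher in implantation B and 0 lower, with a median log2 fold change of 0.20, within the quartiles of all genes. RSAD2, an antiviral enzyme, stood at 47.5, 48.5 and 50 CPM against 10, 33.9 and 24.4 CPM in defect (log2 fold change 1.0), and MX1, an antiviral GTPase, had 0.63 and IFIT3 0.73. Without defect 3 none of the interferon list passed, with 1.10 for RSAD2, 0.63 for MX1 and 1.16 for IFIT3, and SLA-DQA1 (-0.52) had -0.25 and did not pass.

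Of 14 T and B cell markers, 2 were higher in implantation B and 4 lower (0 and 0 without defect 3). JCHAIN, the joining chain of antibodies from plasma cells, stood at 189, 184 and 171 CPM in implantation B, at 100, 136 and 113 CPM in defect and at 2.91 to 4.17 CPM in normal. Both groups lay far above normal, and the log2 fold change between them was 0.68. CD3E, a chain of the T cell receptor complex, stood at 0.933, 2.12 and 2.65 CPM in implantation B and at 0, 0 and 4.85 CPM in defect. Without defect 3 JCHAIN (0.62) and PRDM1 (-0.83, against -0.99) did not pass, and CD3E turned from -1.27 to 7.67, a value that comes from 0 counts in the shallow libraries.

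Epithelial transcripts differed in both directions. Of 15 keratinocyte and urothelial markers tested, 8 were higher in implantation B and 4 lower (2 and 2 without defect 3). The whole list summed to 3766 to 3830 CPM in implantation B, 2966 to 3234 CPM in defect and 1873 to 1948 CPM in normal. KRT4, a keratin of the layers above the base in moist stratified epithelium, stood at 1788, 1820 and 1811 CPM in implantation B, at 436, 360 and 469 CPM in defect and at 701 to 755 CPM in normal, 4-fold over defect (adjusted p = 1.89e-39). KRT15, a keratin of basal cells, stood at 98.9, 104 and 101 CPM against 35.1, 33.9 and 35.6 CPM, and normal overlapped with implantation B. KRT5, the main basal keratin, went the other way, at 1541, 1583 and 1589 CPM against 2237, 2131 and 2339 CPM in defect, and is named after its values were seen. DSG1, a desmosome cadherin, had a log2 fold change of -1.40 and did not pass without defect 3 (-0.69).

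WFDC2, DMBT1 and TSPAN1, the secretory genes among the largest differences, were higher in implantation B, as were 8 of the 15 epithelial markers and their sum, while 4 of the markers were lower. The part that epithelium in the samples had in them was not tested. WFDC2, a secreted protein of glandular epithelium, stood at 67.4, 59.4 and 59 CPM in implantation B and at 0, 0 and 0.51 CPM in defect, from 0, 0 and 8 counts, with 8.67 to 11.8 CPM in normal. DMBT1, a mucosal glycoprotein, stood at 63.5, 64.4 and 64.9 CPM against 0, 0 and 0.574 CPM, and TSPAN1, a tetraspanin of epithelium, at 72.2, 67.6 and 72.1 CPM against 0, 0 and 3.51 CPM. In all 3 genes the libraries of implantation B were the highest of the 9. Their levels in implantation B were above the floors of 14.4 and 12 CPM of the shallow libraries, where defect 1 and 2 had counts of 0. The fitted log2 fold changes of 6.94, 6.83 and 4.37 became 12.68, 12.74 and 12.87 without defect 3, where they depend on the prior count.

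Of 14 Schwann cell and nerve markers, 5 were higher in implantation B and 0 lower (3 and 0 without defect 3). NEFL, the light neurofilament chain of axons, stood at 104, 107 and 106 CPM in implantation B, at 15.1, 12.7 and 7.71 CPM in defect, from 3, 3 and 121 counts, and at 4.57 to 6.65 CPM in normal, 13.4-fold over defect (adjusted p = 5.37e-36). NEFM, the medium chain, stood at 19.8, 18.2 and 18.1 CPM against 0, 0 and 1.79 CPM, with 2.61 to 3.37 CPM in normal. Myelin and glial members split. ERBB3 (log2 fold change 0.36) and PMP22 (0.23) passed as higher, as did NGFR. The other 9 markers of the list did not pass. Among these were MBP, PRX, S100B and SOX10, with log2 fold changes from -0.05 to 0.25. ERBB3, PMP22, MBP, PRX, S100B and SOX10 are named after their values were seen. The log2 fold change of NEFM was 3.43, or 10.96 without defect 3, and that of NGFR was 0.41, or 0.59 there without passing.

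Of 9 pericyte markers, 1 was higher in implantation B, CSPG4 (0.64), and 4 were lower (1 and 0 without defect 3), among them ABCC9 (-0.77) and RGS5 (-0.48), neither of which passed without defect 3 (-0.86 and -0.11). Of 15 hypoxia and glycolysis genes, 7 were higher and 2 lower (2 and 1 without defect 3). EGLN3, an oxygen sensor, stood at 37.7, 37.4 and 36.6 CPM against 5.02, 12.7 and 19.9 CPM in defect, a log2 fold change of 0.94, or 2.03 without defect 3, while the glycolytic enzymes ENO1 (-0.51) and LDHA (-0.46) were lower, LDHA without passing there (-0.26). Of 8 adipocyte markers, 0 were higher and 4 lower (0 and 0 without defect 3). Of 24 ribosomal protein genes, 1 was higher and 5 were lower (1 and 0 without defect 3), at a median log2 fold change of -0.07. Mast cell markers (4 tested) had 0 calls in either direction. Of 3 skeletal muscle and 2 erythroid markers, 1 each was higher and 0 lower, and without defect 3 there were 0.

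**Figure D5:**
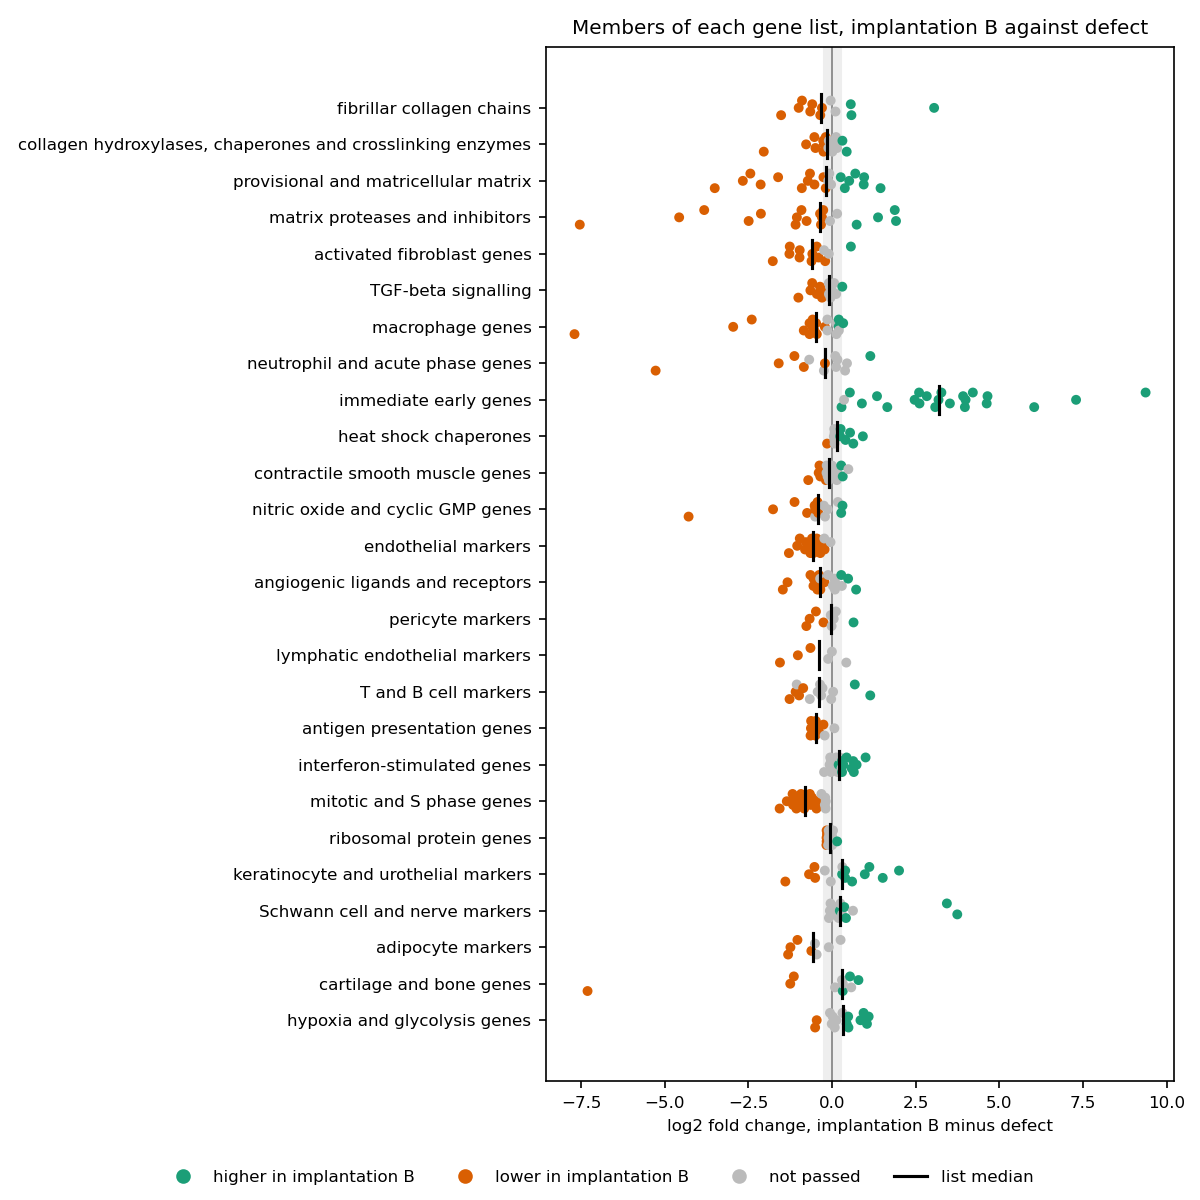
Log2 fold changes of implantation B minus defect for the tested members of the 26 lists with at least 5 of them. Each point is a gene, green where it was higher in implantation B, orange where lower and grey where it did not pass, the black tick is the median of the list, and the grey band and line are the quartiles (-0.239 and 0.261) and the median of all genes tested. Immediate early genes lie far to the right with a median of 3.18, and mitotic, endothelial, activated fibroblast and antigen presentation genes lie to the left.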

How the data were processed

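Poly(A) RNA was made into libraries with a TruSeq RNA kit, per the labels' protocols. Reads were handled with fastp, HISAT2, HTSeq and DESeq2 on the pig build Sscrofa11.1, per the submitters' processing notes, which give no versions. The authors deposited whole-number read counts per gene and TPM values for the same libraries. How TPM was made and the strand setting were not given in the sources used here. Reads of genes that overlap, on either strand, therefore cannot be assigned with certainty.

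Counts of implantation B, defect and normal (9 libraries) were fitted together with edgeR 4.0.16 in R 4.3.3, with filterByExpr, TMM factors, a robust quasi-likelihood fit and two-sided tests. P-values were adjusted by Benjamini-Hochberg over all 17657 genes tested, with a threshold of 0.05. SE are Wald standard errors. Sums over lists used every member with a row. The script was tested on simulated data. Alternatives used DESeq2 1.42.0, limma 3.58.1 and TPM plus 1 or plus 0.1.

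Gene members and lists were chosen with earlier results of these data known. Named genes were 24 chosen genes, the 8 largest changes each way, up to 3 members of each list with the smallest p, up to 4 per scar class with the highest mean level, and the immediate early and macrophage genes with large changes. Of 456 list symbols, 10 had no row and were not analysed here. Gene totals were 207769 to 250178 counts in defect 1 and 2 and 17234169 to 19526875 in the other 7 libraries. Intervals of counting error are not given, since the SE hold the spread between libraries. Single values of a few list members are not reported here.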

Additional observations from a re-analysis of the deposited data

How the results depend on the processing

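Defect 3 holds nearly all reads of its group, and depth limits what defect 1 and 2 show of low genes. The settings were followed for 181 single genes, chosen by the naming rule or after their values were seen. Leaving out 1 library at a time gave 673 to 5138 changed genes, 392 to 2830 higher and 281 to 2518 lower, and 33 to 52 scar transcripts raised in both groups and lower in implantation B, the low ends being without defect 3. With every library thinned to the shallowest, 501 genes changed, 215 higher and 286 lower. DESeq2 called 2007 (942 higher, 1065 lower). limma-voom with quality weights called 1365 (379 higher, 986 lower), with 34 scar transcripts raised in both and not passing against defect. TPM plus 1 called 1864 (1281 higher, 583 lower) and 33 scar transcripts raised in both and lower in implantation B. TPM plus 0.1 called 1470 (957 higher, 513 lower) and 34 of those. The median log2 fold change of all genes was 0.186 and 0.318 on the TPM scales. In each case the cause was not tested.

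Of the 181 genes, 116 kept direction and side of the threshold without defect 3, 58 no longer passed, 2 newly passed and 5 turned direction. Without defect 1 and 2, 173 kept both. Genes that passed under neither setting were counted as kept even where their sign differed. AIF1 turned to 0.42 with limma-voom, 2.20 with TPM plus 1, 3.32 with TPM plus 0.1 and 1.93 without defect 3. CD3E turned to 0.97, 2.83 and 7.67 and FABP4 to 1.72, 3.80 and 8.33 in the last 3 of these settings, and PLIN1 to 0.48 with TPM plus 0.1. Without defect 3 TYROBP turned to 0.21 and S100A8 to 0.0582. Over the fits that leave out 1 library the log2 fold change ran from -1.58 to 7.67 for CD3E, from -1.49 to 8.33 for FABP4, from -0.63 to 1.93 for AIF1, from -0.50 to 0.21 for TYROBP and from -0.24 to 0.0582 for S100A8. After thinning, RGS5 turned to 0.13, C1QB to -0.081 and S100A8 to 0.12. The cause was not tested.

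With the replicate block, 4482 genes changed and 7 of the 181 genes no longer passed. Deviations of same-numbered libraries of implantation B and defect had correlations of 0.0252, -0.00553 and 0.00631 over 6130 genes. Differently numbered pairs ran from -0.0243 to 0.022. Counting scatter in the shallow defect libraries can hide a shared deviation, so these values cannot decide whether same-numbered libraries are paired.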

Other observations

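Class I histocompatibility genes of the pig were chosen after their values were seen. Of the classical ones, SLA-1 and SLA-2 stood lower in implantation B than in defect, and SLA-3 stood higher. SLA-1 stood at 69.0, 68.7 and 63.6 CPM in implantation B, at 401, 496 and 509 CPM in defect and at 520, 505 and 451 CPM in normal. SLA-3 stood at 201, 201 and 196 CPM in implantation B, at 45.2, 76.2 and 52.4 CPM in defect and at 150, 154 and 172 CPM in normal. The log2 fold changes of implantation B over defect were -2.88 for SLA-1 and 1.91 for SLA-3. SLA-2 stood at 98.7, 94.7 and 94.1 CPM in implantation B and at 316, 322 and 340 CPM in defect. In SLA-6, SLA-7 and SLA-8 every library of implantation B also lay below those of defect. The sum over 6 class I genes, of TMM-scaled CPM, was 463.5, 455.7 and 444.5 CPM in implantation B, 948.2, 1008 and 1024 CPM in defect and 1212, 1181 and 1101 CPM in normal, so implantation B was lowest in the sum as well. These genes are near-identical and highly variable between animals, and how reads were shared among them was not tested.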
